A study of Sus scrofa with 6 samples.

Results

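The genes described here are 9 genes of glutathione use and redox balance in cultured keratinocytes of the pig eye surface. They came from a list of 10 symbols, and a gene was taken where a probe set of the porcine array carried its symbol alone in the annotation table. GSTP1 had no such probe set and was skipped, so 9 of 10 genes were found, with 19 probe sets, among 6765 genes and 23999 probe sets in all. The list was drawn up with values of these same arrays known, among them a pattern of GSTA1 that looked on in some clones and off in others. The members' own values are therefore given as a description, without a test.

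The arrays held 3 clones of keratinocytes from central cornea and 3 from conjunctiva, each taken 6 mm from the limbus. All came from white domestic pigs (Sus scrofa), with 1 array per clone. The labels give no treatment or genetic change for either group, and they do not state the animals' age. They name 2 animals without tying a clone to an animal, and they do not pair corneal and conjunctival clones of the same number. Differences between same-numbered clones are therefore not those of known pairs. Each clone grew from 1 cell picked out of a mass culture, and all were kept in the presence of irradiated mouse 3T3-J2 fibroblasts as a feeder layer, in a supplemented DMEM and F12 medium. The run files name an irradiation time course as their project, which the labels do not mention. Values are log2 RMA values, in which a difference of 1 is a 2-fold difference. A probe set is called on in a clone where it lay above the 75th percentile of that array and off where it lay below the array's median. These are positions within an array and not tests of detection.

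Glutathione is a small thiol peptide that cells use to neutralise peroxides and reactive chemicals. Glutamate-cysteine ligase, made of a catalytic subunit (GCLC) and a modifier subunit (GCLM), carries out the limiting step of its synthesis. Glutathione transferases (GSTA1, GSTM3, MGST3) join it to electrophiles, glutathione peroxidases (GPX1, GPX2) spend it on peroxides, glutathione reductase (GSR) regenerates it with NADPH, and glutaredoxin (GLRX) uses it to reduce mixed disulfides on proteins. The surface of the eye faces light and air, and its epithelium is known for a high antioxidant capacity.

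The array medians ran from 4.40 to 4.48 and the 75th percentiles from 6.23 to 6.37. Of 24 keratinocyte markers 8 were measured, and 6 of them (CDH1, SFN, PERP, DSP, JUP and EPCAM) were on in all 6 clones. ITGA6 was off in all, and COL17A1 was on in all but conjunctiva 2, where it read 6.13. KRT5, KRT14 and TP63 were not analysed here, nor were the corneal markers KRT3, KRT12 and PAX6. Of 10 measured leukocyte markers 9 were off in every clone, PTPRC among them. Of 8 measured endothelial markers 6 were off in every clone, but PECAM1 was on in all, at 7.11 to 8.22. Of 5 melanocyte and 4 goblet cell markers measured, 2 of each were off in every clone and 0 were on in every clone. Of 13 measured fibroblast markers 5 were off and 4 were on in every clone, the latter being COL1A2, PDGFRB, THY1 and VIM. The mean level of the keratinocyte list was 9.48 to 10.17 in cornea and 9.52 to 9.70 in conjunctiva, and that of the fibroblast list 5.71 to 5.92 and 5.64 to 5.97, so both overlapped between the tissues. Single fibroblast markers moved more between clones than the list mean. DCN ran from 5.61 in cornea 3 to 8.48 in conjunctiva 2, and THY1 from 9.66 to 12.24 in the same clones.

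GSTA1, an alpha-class glutathione transferase, showed the widest contrast between clones of 1 tissue among the members, on the middle one of its 3 probe sets by brightness, called the switching probe set here. The values were 8.02, 7.99 and 3.56 in cornea 1, 2 and 3, and 8.64, 3.39 and 3.37 in conjunctiva 1, 2 and 3. The probe set was thus on in cornea 1, cornea 2 and conjunctiva 1 and off in the other clones, and both tissues held clones of either kind. The gap between the lowest of the high clones and the highest of the low ones was 4.43, a 21.6-fold step, and 3 of 23999 probe sets, this one included, had a gap between neighbouring clones at least as wide. No other probe set had these same calls in all 6 clones, but only 103 of 23999 (0.43%) were on in 1 clone or more and off in another. In samples of whole cultures such as these, fewer cells of a type and less RNA per cell cannot be told apart.

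The other GSTA1 probe sets gave the same 3 highest clones in the same order, conjunctiva 1, cornea 1 and cornea 2, but a narrower contrast. The brightest, which represents the gene under the rule, stood at 7.80, 7.26 and 5.55 in cornea 1, 2 and 3 and at 7.97, 6.95 and 5.64 in conjunctiva 1, 2 and 3. It was on in 4 clones and between the limits in cornea 3 and conjunctiva 3, with a range of 2.42, or 5.34-fold. That range was wider than in 98.9% of all probe sets. The third was dim, from 3.25 in cornea 3 to 4.81 in conjunctiva 1, and off everywhere except conjunctiva 1.

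The GSTA1 probe sets parted most in conjunctiva 2. There the brightest probe set read 6.95, close to the 7.26 of cornea 2, whereas the switching probe set read 3.39, as low as in conjunctiva 3. The annotation lists a second transcript for the brightest probe set that the gene table at hand pairs with no gene, so whether that probe set measures GSTA1 alone was not tested. Cornea 3 and conjunctiva 3 were the lowest clones of the brightest probe set, and both were low on all 3. The 3' minus 5' signal of the actin controls, a measure of RNA quality, was 0.46, 1.07 and 0.79 in cornea 1, 2 and 3 and 0.55, 0.93 and 1.11 in conjunctiva 1, 2 and 3. It was lowest in cornea 1 and conjunctiva 1, which were high for GSTA1, but at 1.07 in cornea 2, which was high too, and its part in the pattern was not tested.

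Markers of the tissues also moved between the clones. Of the conjunctival list 4 of 9 were measured, with list means of 4.92 to 5.84 in cornea and 5.10 to 6.36 in conjunctiva. KRT19, a keratin of simple and mucosal epithelia in that list, ran opposite to the switching GSTA1 probe set. It was at 7.01, 8.29 and 10.36 in cornea 1, 2 and 3 and at 7.15, 10.44 and 9.36 in conjunctiva 1, 2 and 3, so that its 3 lowest clones were those in which GSTA1 was on. AQP5 in the same list was at 5.98, 7.54 and 5.83 in cornea and 5.97, 5.52 and 5.79 in conjunctiva. Its 3 highest clones were those in which GSTA1 was on, but only cornea 2 stood apart. Cornea 1 and conjunctiva 1 lay close to the 5.83 of cornea 3. MUC1 was off in every clone, and the mucin gene MUC4 was off in all but conjunctiva 2, where it reached 5.29. Of the corneal list 2 of 7 were measured, with list means of 8.99 to 10.59 in cornea and 9.19 to 11.07 in conjunctiva. CLU, the clusterin gene, was at 10.22, 9.48 and 7.41 in cornea and 7.72, 11.39 and 9.36 in conjunctiva, highest in conjunctiva 2 and lowest in cornea 3. The part of these markers in the GSTA1 values was not tested.

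**Figure D1:**
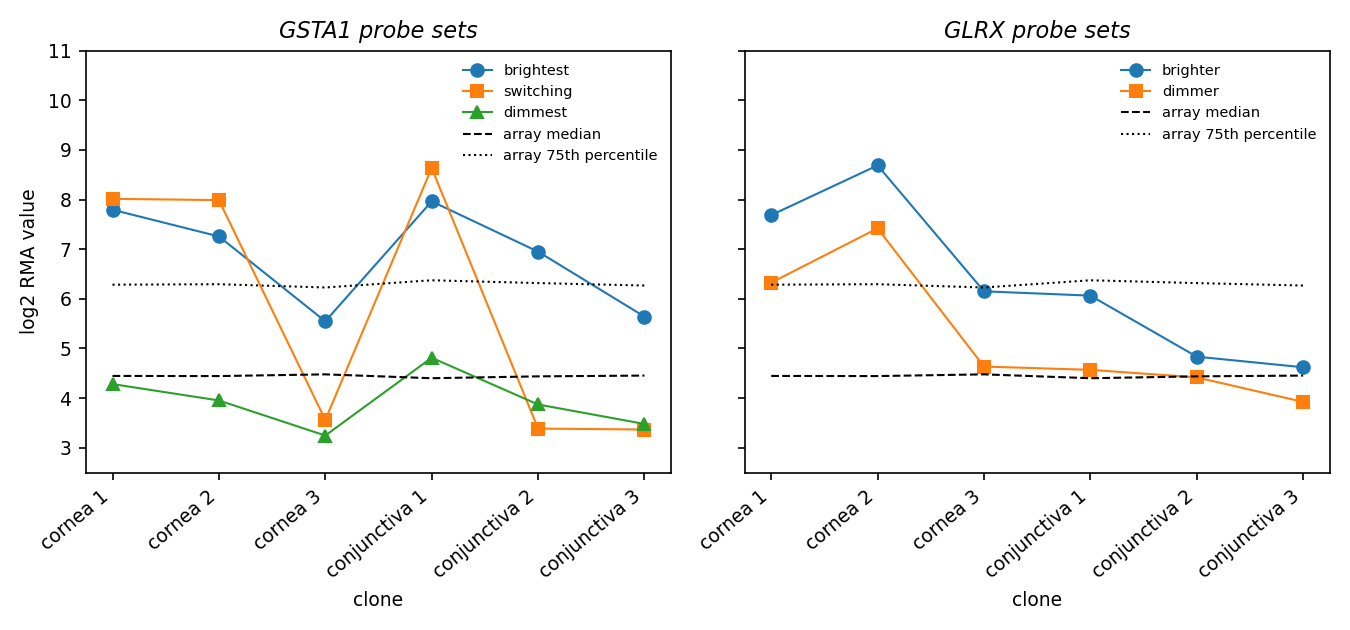
Log2 RMA values (y axis) of the 3 GSTA1 probe sets on the left and the 2 GLRX probe sets on the right in each clone (x axis), with each array's median (dashed) and 75th percentile (dotted). Lines only join the points of 1 probe set. The switching probe set falls from 7.99 or more in 3 clones to 3.56 or less in the other 3, and both GLRX probe sets are highest in cornea 2 and cornea 1.

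As tissue means GSTA1 did not stand apart. The brightest probe set was at 6.87 ± 1.17 in cornea and 6.85 ± 1.16 in conjunctiva (SD, n = 3), a difference of -0.01 (SE 0.74, conjunctiva minus cornea, or SE 0.14 with the clone number as a block). The switching probe set was at 6.52 ± 2.57 and 5.13 ± 3.04, a difference of -1.39 with an SE of 1.78. Both differences were smaller than the spread among clones of 1 tissue. Between clones of the same number in each tissue, the brightest probe set differed by 0.17, -0.31 and 0.09 for numbers 1, 2 and 3, and the switching probe set by 0.62, -4.60 and -0.19. Within fluidics station 1, which held cornea 1, conjunctiva 2 and conjunctiva 3, the difference of the brightest probe set was -1.50, and within station 2 it was 1.56. Its sign also turned when array medians were set equal (0.01) and with the station as a block (0.03), and it ran from -0.67 without cornea 3 to 0.59 without conjunctiva 3.

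The genes whose clone pattern lay nearest to GSTA1 were found by the root mean square distance between values centred on each gene's mean of the 6 clones, a description over 6 arrays. For the switching probe set, a search added after its values were seen, ARG1 came first at a distance of 0.66. ARG1 encodes arginase, and its values were 7.59, 8.64 and 3.28 in cornea 1, 2 and 3 and 8.92, 4.97 and 3.70 in conjunctiva 1, 2 and 3. The same 3 clones as for GSTA1 were high, and ARG1 was off in cornea 3 and conjunctiva 3 and between the limits in conjunctiva 2. IVL, which encodes the cornified envelope protein involucrin, followed at 1.05, with 10.80, 10.85 and 8.49 in cornea and 11.40, 7.22 and 8.69 in conjunctiva. It was on in all 6 clones.

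The next genes were HSPA2, a heat shock protein gene, at a distance of 1.12, KRT1, the keratin of differentiating epidermal cells, at 1.20, and C1H15orf48 at 1.29. KRT1 stood at 8.76, 11.05 and 6.88 in cornea and at 9.02, 4.57 and 6.34 in conjunctiva. HSPA2 was at 8.56, 7.70 and 3.75 in cornea and 7.29, 4.91 and 5.42 in conjunctiva. Each of these 5 genes had its 3 highest values in cornea 1, cornea 2 and conjunctiva 1. Since the genes were picked for nearness to that pattern, this follows largely from the choice and is no separate result. For all 5 the tissues overlapped (adjusted p = 0.9999 for each by limma).

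**Figure D2:**
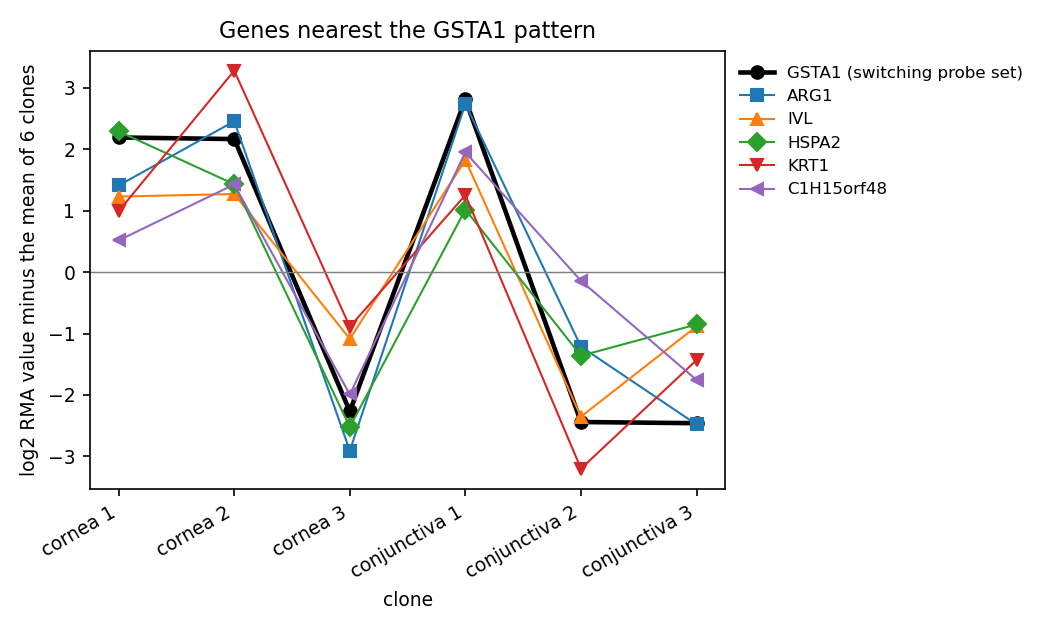
Log2 RMA value minus the mean of the 6 clones (y axis) for the switching GSTA1 probe set and for the 5 genes with the nearest pattern, in each clone (x axis). Lines only join the points of 1 gene. All 6 are highest in cornea 1, cornea 2 and conjunctiva 1, and conjunctiva 2 ranges from -3.20 for KRT1 to -0.14 for C1H15orf48.

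The brightest GSTA1 probe set drew other genes. TNFAIP1 was nearest at a distance of 0.33, followed by the ribonuclease gene RNASE4 at 0.38, BROX at 0.40, LOC404703 at 0.42 and JUP, which encodes the junction protein plakoglobin, at 0.47. TNFAIP1 was at 6.99, 7.28 and 5.46 in cornea 1, 2 and 3 and at 7.32, 6.49 and 5.64 in conjunctiva 1, 2 and 3. None of these 5 genes was among the 5 nearest to the switching probe set (0 shared). The measure that takes the mean absolute distance kept 4 of the 5. Of the other members, GPX2 ranked nearest to the brightest probe set, in place 150, and GLRX was nearest to the switching probe set, in place 19.

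The other transferases were steady by comparison and on in every clone. GSTM3, a mu-class transferase, was at 11.06, 10.72 and 10.65 in cornea 1, 2 and 3 and at 10.56, 10.20 and 10.20 in conjunctiva 1, 2 and 3. All corneal values lay above all conjunctival ones, though cornea 3 and conjunctiva 1 were only 0.09 apart. The means were 10.81 ± 0.22 and 10.32 ± 0.21 (SD, n = 3), a difference of -0.49 (SE 0.16), or 1.41-fold. Between same-numbered clones it was -0.51, -0.52 and -0.45, while within stations 1 and 2 it was -0.86 and -0.13.

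MGST3, a membrane-bound transferase, was the steadiest member. It was at 9.42, 9.41 and 9.39 in cornea and at 9.67, 9.68 and 9.64 in conjunctiva. The conjunctival clones were all higher, by 0.25 (SE 0.09) or 1.19-fold, against SDs of 0.02 in each tissue. By clone number it was 0.25, 0.27 and 0.25, and it was 0.24 within station 1 and 0.27 within station 2. Its range over the clones, 0.29, was wider than that of 18.5% of all probe sets.

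No probe set of the glutamate-cysteine ligase subunits was on in any clone. The brightest of 5 GCLC probe sets stood at 5.64, 5.31 and 5.39 in cornea and at 5.07, 5.15 and 4.89 in conjunctiva, lower in all conjunctival clones, with a difference of -0.42 (SE 0.13), and by -0.58, -0.17 and -0.50 between same-numbered clones. It lay above the array median and below the 75th percentile in all clones. The other 4 did not give 1 direction. Their differences were 0.18, -0.19, 0.21 and 0.06, and the mean over all 5 was -0.03. The probe set at 0.21 was higher in every conjunctival clone but off in all clones. GCLM was off in all 6 clones on both of its probe sets. The brighter stood at 4.26, 4.23 and 4.40 in cornea and 4.24, 4.09 and 3.85 in conjunctiva, which overlapped, with a difference of -0.24 (SE 0.13, and -0.13 without conjunctiva 3), and the dimmer differed by 0.02.

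Both peroxidases were on in every clone. GPX1, the common cytosolic peroxidase, was at 11.57, 11.89 and 11.59 in cornea and 11.97, 12.36 and 11.86 in conjunctiva. The tissues overlapped narrowly, since cornea 2 lay above conjunctiva 3, and the difference was 0.38 (SE 0.17, or 0.11 with the clone number as a block). Between same-numbered clones GPX1 was higher in conjunctiva each time, by 0.40, 0.47 and 0.26. Without conjunctiva 2, the highest clone, it was 0.23. GPX2, known best from gut epithelium, was at 7.74, 8.34 and 7.56 in cornea and 8.23, 8.11 and 6.93 in conjunctiva. Its spread came mainly from conjunctiva 3, the lowest clone. The difference of -0.13 (SE 0.38) became 0.29 without that clone and -0.36 without conjunctiva 1. By clone number it was 0.49, -0.23 and -0.64.

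GSR was on in every clone, at 7.69, 8.27 and 8.66 in cornea and 8.29, 8.65 and 8.64 in conjunctiva. Cornea 1 was the lowest, and the tissues overlapped. The difference of 0.32 (SE 0.25) was 0.06 without cornea 1 and 0.55 without cornea 3, and it was 0.95 within station 1 and -0.18 within station 2. Same-numbered clones differed by 0.60, 0.38 and -0.02. The 2 dimmer GSR probe sets differed by -0.002 and 0.17. On the brightest GSR probe set cornea 1, high for GSTA1, was thus the lowest clone. The highest was cornea 3, the lowest for the brightest GSTA1 probe set. Both dimmer GSR probe sets were lowest in cornea 2, at 5.08 and 3.73, and highest in cornea 3 (5.80) and conjunctiva 1 (4.27).

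GLRX had the largest difference between tissue means among the members. It was at 7.69, 8.69 and 6.15 in cornea 1, 2 and 3 and at 6.07, 4.84 and 4.62 in conjunctiva 1, 2 and 3. It was on in cornea 1 and cornea 2 and between the limits in the other 4 clones. The tissues did not overlap, yet cornea 3 and conjunctiva 1 were only 0.09 apart. The means were 7.51 ± 1.28 and 5.17 ± 0.78 (SD, n = 3), a difference of -2.34 (SE 0.67), or 5.05-fold higher in cornea. The second GLRX probe set ordered the clones in the same way, at 6.33, 7.42 and 4.64 in cornea and 4.57, 4.42 and 3.92 in conjunctiva, a 3.54-fold difference. It too was on in some clones and off in others. It was on in cornea 1 and cornea 2, off in conjunctiva 2 and conjunctiva 3 and between the limits in the rest. Its 4.42 in conjunctiva 2 lay just below that array's median of 4.44, and its 6.33 in cornea 1 just above the 75th percentile of 6.29. Between same-numbered clones the brighter probe set differed by -1.62, -3.85 and -1.53. Leaving out 1 clone moved the difference to between -3.01 (without cornea 3) and -1.75 (without cornea 2), and within stations 1 and 2 it was -2.96 and -1.36. The GAPDH 3' minus 5' signal was -0.13 to 0.29 in cornea and 0.23 to 0.42 in conjunctiva, lowest in cornea 1, and its part in the GLRX values was not tested.

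**Figure D3:**
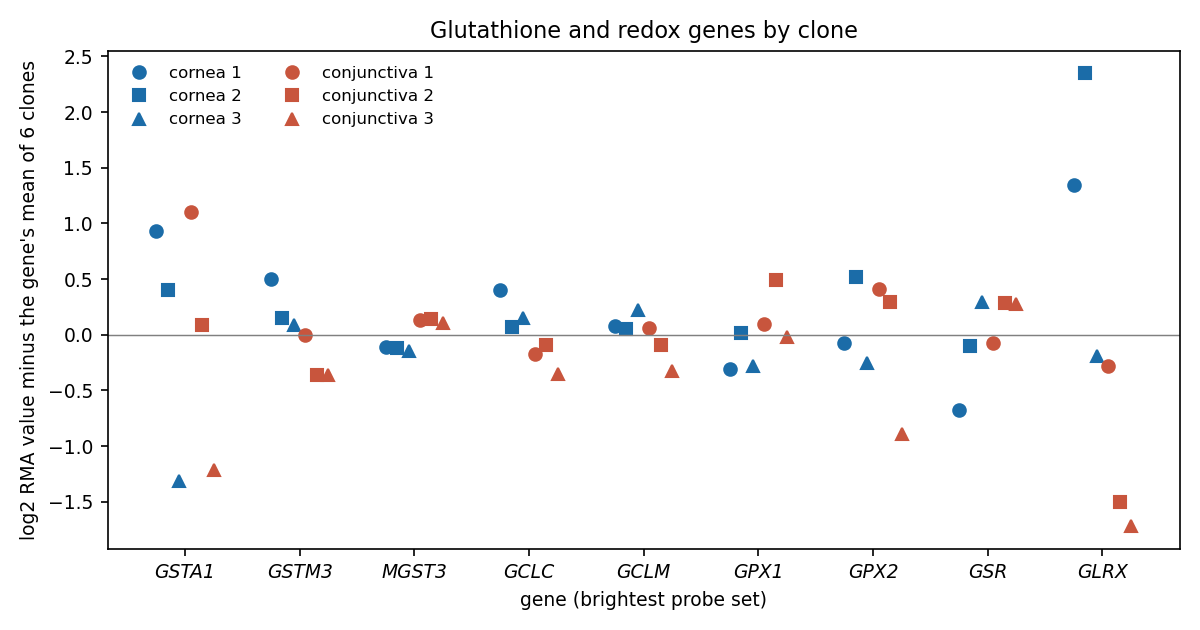
Log2 RMA value minus the gene's mean of the 6 clones (y axis) for the brightest probe set of each of the 9 genes (x axis), 1 point per clone, with colour for the tissue and shape for the clone number. GSTA1 and GLRX spread widest (ranges 2.42 and 4.07), GSTA1 without a split by tissue and GLRX with the corneal clones above the conjunctival ones.

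Set clone against clone, the other 8 genes are given by their median distance from their own means, which holds genes that went either way. In cornea 1, where the brightest GSTA1 probe set was 0.94 above its mean, the median of the other 8 was 0.002 above theirs, and 4 of 8 were above. In cornea 3, where GSTA1 was 1.31 below its mean (-1.31), that median was -0.03, and again 4 of 8 were above. In conjunctiva 1 GSTA1 was at 1.11 and the others at a median of 0.03. In conjunctiva 3 GSTA1 was at -1.22 and the others at a median of -0.34, with 2 of 8 above their mean. In cornea 2 the values were 0.40 and 0.06, with 6 of 8 above, and in conjunctiva 2 they were 0.09 and 0.03. The switching GSTA1 probe set lay further from its own mean in every clone. It was at 2.19, 2.16 and -2.27 in cornea 1, 2 and 3 and at 2.81, -2.44 and -2.46 in conjunctiva 1, 2 and 3. In conjunctiva 2 it was thus far below its mean, where the brightest probe set was not. GPX2 and GLRX were the other members whose range reached 1, at 1.41 and 4.07, and the median range was 0.87 over the members and 0.58 over all genes.

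The comparison of the tissues asks which genes differ between corneal and conjunctival clones. By limma at an adjusted p of 0.05, 0 of 23999 probe sets passed (0%), and 648 had an unadjusted p under 0.05, or 1204 with the clone number as a block. The count was also 0 with the unmoderated test, 1 with 1 probe set per gene and 2 with limma's trend and robust options, and no member was called in any of these fits (0 of 9). The values of the 3 corneal and 3 conjunctival clones did not overlap for 4 of the 9 members, GSTM3, GCLC and GLRX lower and MGST3 higher in conjunctiva, where the share over all genes was 6.71% (3.16% lower and 3.55% higher). Since the list was chosen on these values, the count is a description. Of the 9 members 3 were higher and 6 lower in conjunctiva, with a median difference of -0.13, beside 0.01 over all genes. That median was -0.36 without conjunctiva 1, 0.26 without conjunctiva 3 and 0.10 without cornea 2.

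Of 102 other genes of glutathione, redox and metal handling, listed by role, 61 were measured. By limma 0 of 61 passed in either direction (0 by every other fit too), 1 had an unadjusted p under 0.05, and 32 were higher and 29 lower in conjunctiva, with a median of 0.02. The tissues did not overlap for 3 of them (4.92%), all lower in conjunctiva. Over all genes the share was 6.71% in either direction and 3.16% lower in conjunctiva. The list held 39 genes that were on and 7 that were off in every clone. Only CBR1 was on in 1 clone or more and off in another, as 39 of 6765 genes were.

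Genes that supply glutathione were measured for 7 of 15, with 3 higher, 4 lower and a median of -0.13. ANPEP, an aminopeptidase of the cell surface, was at 5.10, 6.79 and 5.32 in cornea and 4.79, 4.97 and 4.58 in conjunctiva, a difference of -0.96 (SE 0.43) that was -0.43 without cornea 2. SLC3A2, the heavy chain of amino acid exchangers including the cystine carrier, had a difference of -0.32 (SE 0.19), which leaving out cornea 2 or cornea 3 moved to -0.16 or -0.51. CTH, which makes cysteine from cystathionine, had the wide range of 2.40, from 4.72 in conjunctiva 2 to 7.12 in cornea 3. Its difference of -0.39 turned to 0.18 without conjunctiva 2 and was -0.76 without cornea 1. GSS, which completes glutathione synthesis, was at 7.60 to 7.92 in cornea and 7.53 to 7.85 in conjunctiva.

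Of 18 other transferases 6 were measured, with differences from -0.26 to 0.21. GSTO1, an omega-class transferase, varied most, from 8.92 in conjunctiva 1 to 10.43 in cornea 3, while conjunctiva 1 was the clone with the highest GSTA1. GSTA4, an alpha-class relative of GSTA1, was at 6.73, 7.23 and 7.13 in cornea and 7.27, 6.82 and 7.54 in conjunctiva. It was lowest in cornea 1, where GSTA1 was on, and next lowest in conjunctiva 2, where the switching GSTA1 probe set was off. The microsomal transferase MGST1 was off throughout, at 2.97 to 3.40.

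Enzymes that remove peroxides or superoxide were measured for 15 of 16. Of these, 10 were on in every clone and none had a range of 1 or more (0 of 15). The widest was the mitochondrial peroxiredoxin PRDX3, at 8.42 to 9.33. GPX4, which reduces lipid peroxides, was nearly level at 10.87 to 11.08. SOD3, the extracellular superoxide dismutase, was lower in all conjunctival clones, with 6.39, 6.95 and 6.37 in cornea against 6.14, 6.13 and 6.23 (difference -0.40, SE 0.17, and -0.21 without cornea 2). The peroxiredoxin PRDX2 differed by 0.26 (SE 0.14), and by 0.15 without conjunctiva 2.

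In the thioredoxin and glutaredoxin systems 14 of 16 genes were measured, with 8 higher, 6 lower and a median of 0.05. The relatives of GLRX did not repeat its order of clones. GLRX2, the mitochondrial glutaredoxin, was highest in conjunctiva 1 at 8.42 and lay between 7.28 and 7.73 in the rest, and GLRX3 and GLRX5 differed by 0.05 and 0.24. TXNIP, which binds and inhibits thioredoxin, was at 7.49, 8.79 and 8.54 in cornea and 6.39, 9.07 and 8.78 in conjunctiva, so that the clones numbered 1 were lowest in both tissues. Its difference of -0.19 (SE 0.73) was 1.44 within station 1 and -2.27 within station 2, and it ran from -0.68 without conjunctiva 2 to 0.66 without conjunctiva 1. The thioredoxin reductase gene TXNRD1 differed by -0.39 (SE 0.20), and 1 of its 2 other probe sets had the opposite sign.

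Among targets of NRF2, the transcription factor that switches on antioxidant genes, and genes that make NADPH, 17 of 32 were measured, NFE2L2 and KEAP1 not among them. NQO1, a quinone reductase and classic NRF2 target, was at 10.97, 11.49 and 10.80 in cornea and 10.93, 11.83 and 10.87 in conjunctiva, with clone 2 highest in both tissues. HMOX1, the inducible haem oxygenase, was at 7.72 in cornea 1 and between 6.45 and 6.78 in the other 5 clones. Its difference of -0.38 (SE 0.31) was -0.01 without cornea 1, the clone lowest on the brightest GSR probe set, and -0.64 without cornea 2. CBR1, a carbonyl reductase, ranged most widely, at 4.85, 4.96 and 5.44 in cornea and 6.25, 8.83 and 3.98 in conjunctiva. Conjunctiva 2 stood highest and conjunctiva 3 lowest, and the difference of 1.27 (SE 1.10) was 0.03 without conjunctiva 2 and 2.45 without conjunctiva 3.

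MT1A, a metallothionein that binds zinc and other metals, was on in all 6 clones and lower in every conjunctival one. It was at 11.19, 11.60 and 11.91 in cornea and 11.03, 9.89 and 11.14 in conjunctiva. The difference was -0.88 (SE 0.36, unadjusted p = 0.046 and adjusted p = 0.9999 by limma), and it was -0.48 without conjunctiva 2. The other measured metallothionein, MT3, differed by 0.03. SLC3A2, ANPEP, SOD3, PRDX2, TXNRD1, CTH, TXNIP and CBR1, named for the smallest p or the widest range in their list, were likewise at an adjusted p of 0.9999 by limma.

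**Figure D4:**
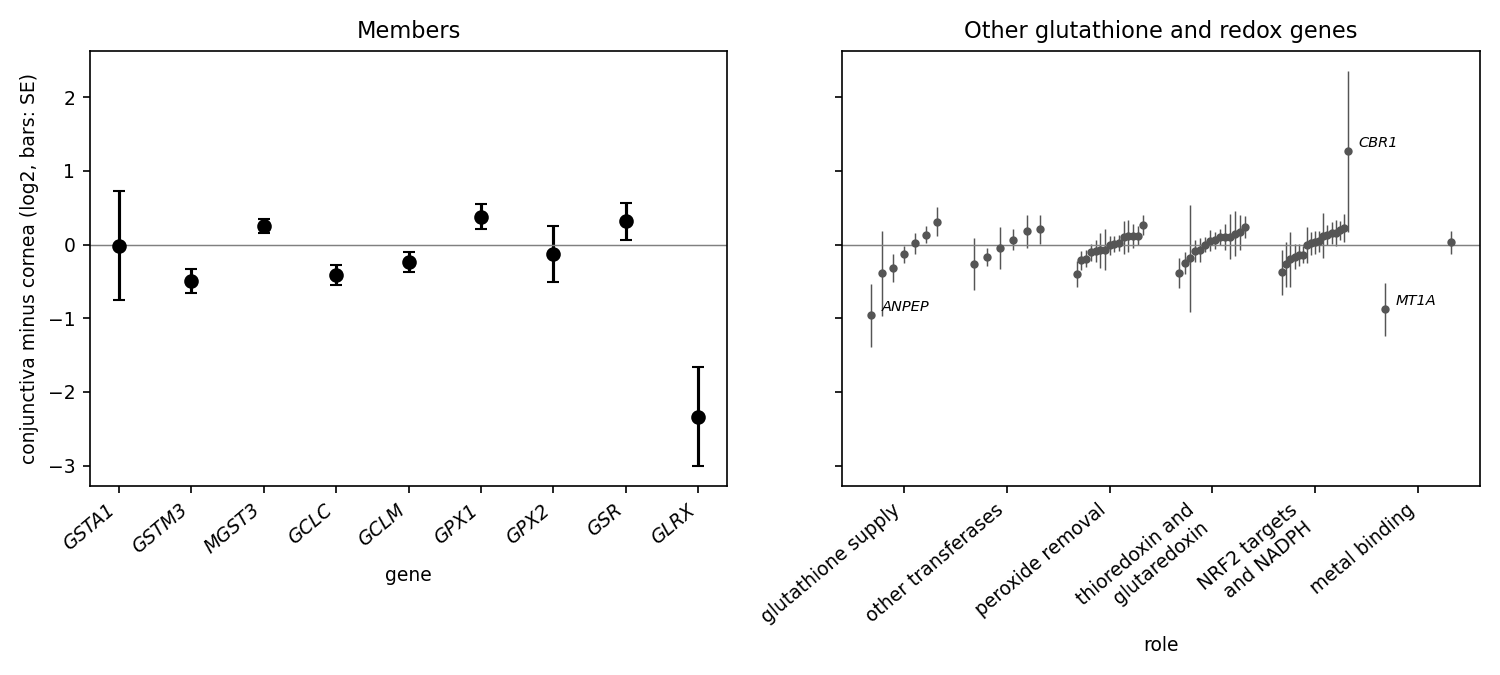
Difference in log2 RMA value, conjunctiva minus cornea (y axis, bars show the SE), for the 9 members on the left and for 61 other glutathione, redox and metal-binding genes by role on the right (x axes), 1 point per gene. GLRX lies lowest at -2.34, and most other genes lie close to 0, with CBR1, ANPEP and MT1A named on the right. The peroxide removal group also holds the superoxide dismutases.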

How the data were processed

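Total RNA of 6 keratinocyte clones was measured on Affymetrix porcine arrays. The values the authors deposited are on a log2 scale and come from RMA (robust multi-array averaging), as the submitters' processing notes name it. RMA quantile-normalises probe signals, which hides any shift in the overall RNA content of a cell. Neither its version nor the set of arrays it was run on is given in the sources used here. Of the non-control probe sets 10069 had 1 symbol, 198 several and 13732 none in the annotation table, and 124 control probe sets were left out. A gene was represented by its brightest probe set over the 6 arrays. No filter on low values was used.

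Tissues were compared with limma 3.58.1 in R 4.3.3 (lmFit, eBayes, two-sided, conjunctiva minus cornea, Benjamini-Hochberg over 23999 probe sets, threshold 0.05), tested on simulated data. SEs are from that fit. The labels do not say that clones came from separate cultures, so p-values measure only the spread between these samples. Precision is limited by how few arrays there are.

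The members and lists were chosen with earlier results of these data known. Named genes were all members, NFE2L2, KEAP1, NQO1, HMOX1, SLC7A11, TXNRD1 and SRXN1 where measured (a further gene of this rule is not reported here), the 6 listed genes with the smallest p, the 4 with the widest range and the 5 nearest GSTA1. Further listed genes were named as examples after their values were seen, as was the switching GSTA1 probe set. For clones of the same number, deviations from tissue means correlated across probe sets at r = 0.354, 0.169 and 0.349 for numbers 1, 2 and 3. Clones of unlike number were not set beside them, so these values do not show that numbers mark pairs. A fit with the number as block was run as an alternative. With it the SE was 0.10 for GSTM3 and for MGST3, 0.13 for GCLC and 0.14 for GCLM. It was 0.23 for GPX2, 0.15 for GSR and 0.48 for GLRX. Fluidics stations came from the run files. No sequences were at hand, so promoter motifs and protein identity were not analysed here.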

Additional observations from a re-analysis of the deposited data

How the results depend on the processing

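The within-station values and the search with the switching GSTA1 probe set were chosen after seeing the data. The number of probe sets that passed was 0 in every fit except 1 with 1 probe set per gene and 2 with the trend and robust options, and 0 to 0 without 1 clone. The replicate block left it at 0, and it changed no call among the members or listed genes. For the listed genes the count was 0 throughout, and 0 to 0 without 1 clone. The members' median difference of -0.13 ran from -0.36 to 0.26 without 1 clone. The listed genes' median of 0.02 became 0.0407 with array medians set equal and -0.0462 within station 2, and ran from -0.0114 to 0.0244 without 1 clone. The GSTA1 range of 2.42 was 5.27 on the switching probe set and 2.25 to 2.42 without 1 clone. Of the 5 genes nearest to GSTA1, 0 were shared with that probe set's 5. No member or listed gene was called under any alternative. Of the values of single genes under the alternatives, 259 kept their side of the threshold or moved by no more than 1 SD between clones. The other 10, all of members, moved by more. Listed genes were judged only by the side of the threshold, which none passed, so the count does not show their shifts in size or sign. TXNIP was counted as kept at 1.44 within station 1 and at -2.27 within station 2. The GCLM probe sets, 2 of the GCLC ones and the dimmest GSR one lay below the array median in every clone, so their differences are those of dim probe sets. The causes of these changes were not tested.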
